A study of Mus musculus with 138 samples.

Results

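The genes described here are Runx1, Runx2, Runx3, Cbfb, Sp7 and Atf4, a core set of transcription factors of bone-forming cells. They were chosen by name, and are 6 of the 55487 genes in the count tables. All samples came from wild-type C57BL/6J mouse embryos at embryonic days E16.5 or E18.5, with no transgene and no treatment. Laser capture microdissection was used to cut the suture mesenchyme (SM), the unossified tissue between 2 skull bones, and the osteogenic fronts (OFs), the growing bone edges beside it, from the frontal, coronal, sagittal and lambdoid sutures. This gave 20 groups of suture, age and region with 5 embryos in each, 100 libraries in all. The coronal suture has a frontal and a parietal OF and the lambdoid suture an interparietal and a parietal OF, whereas 1 OF was captured at the frontal and at the sagittal suture. Each suture at each age came from its own 5 embryos, so regions of 1 suture share embryos while sutures and ages do not. A further 18 libraries were second libraries of coronal samples, 16 were complete sutures, and 4 were single-cell libraries (scRNA-seq) of dissected coronal sutures, 2 at each age.

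Runx1, Runx2 and Runx3 encode the DNA-binding partners of a family of transcription factor dimers, and Cbfb encodes the shared partner, which does not bind DNA itself but raises the affinity of the Runx proteins for their sites. Runx2 is required for osteoblast differentiation. Sp7 (osterix), a zinc-finger factor that acts after Runx2, is required for preosteoblasts to become osteoblasts. Atf4, a leucine-zipper factor of the stress response to unfolded protein and to lack of amino acids, is controlled largely at translation and drives amino acid import and synthesis in osteoblasts, so its RNA level is a limited readout of its activity.

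In the mm10 annotation used by the study, Runx1 (ENSMUSG00000022952.17) lies on the minus strand at chr16:92601466-92826149, Runx2 (ENSMUSG00000039153.17) on the minus strand at chr17:44495987-44814797 and Runx3 (ENSMUSG00000070691.10) on the plus strand at chr4:135120652-135177990. Cbfb (ENSMUSG00000031885.14) lies on the plus strand at chr8:105170674-105217989, Sp7 (ENSMUSG00000060284.7) on the minus strand at chr15:102356606-102367182 and Atf4 (ENSMUSG00000042406.8) on the plus strand at chr15:80255184-80257541. Reads were counted over all annotated exons of a gene. The library kit did not keep strand, and 519 exon bases of Runx2 (5.87% of its exon length) overlap the antisense gene Runx2os1, so reads there cannot be assigned to either. The matching overlap of Runx1 with Gm26626 covers 106 bases (0.882%).

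The start regions of the 3 Runx genes are shown because they share a short stretch that holds the recognition sequence of the Runx proteins themselves. RefSeq start sites on GRCm38.p6 gave 7 windows, from 250 bases before to 50 after a start, for 5 of the 6 genes. Runx1 and Runx3 have 2 windows each, an upstream (distal) and a downstream one, and Runx2, Cbfb and Atf4 have 1. The Runx motif TGTGGT, or ACCACA on the other strand, was found in 16.8% of 32851 such windows. The windows at the most upstream start of Runx1, Runx2 and Runx3 held 2, 3 and 2 matches, and in each of them 2 copies of ACCACA stood 8 bases apart, measured from start to start. Such a pair was found in 7 of the 32851 windows (0.0213%). The stretches are given 5′ to 3′ on the strand of each gene, with the Runx motif in capitals, from chr16:92826025-92826054 (minus strand), chr17:44814583-44814612 (minus strand) and chr4:135120503-135120532 (plus strand).
Runx1: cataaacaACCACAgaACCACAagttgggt
Runx2: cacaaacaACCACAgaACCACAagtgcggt
Runx3: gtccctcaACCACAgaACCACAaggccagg

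The pair in Runx1 and Runx2 lies just after the RefSeq start, its first base at positions 29 and 24, and in Runx3 it lies before it, at position -134. The RefSeq starts of Runx1 and Runx2 lie inside the gene intervals given above, so some bases before these starts fall within those intervals. The Runx2 window held another copy further upstream. The 250 bases before the RefSeq start of Runx2 (chr17:44814628-44814877, minus strand) and before the distal one of Runx3 (chr4:135120395-135120644, plus strand) are given with the same marking. They differ in base composition, with 44.8% G or C in Runx2 and 65.2% in Runx3.
Runx2: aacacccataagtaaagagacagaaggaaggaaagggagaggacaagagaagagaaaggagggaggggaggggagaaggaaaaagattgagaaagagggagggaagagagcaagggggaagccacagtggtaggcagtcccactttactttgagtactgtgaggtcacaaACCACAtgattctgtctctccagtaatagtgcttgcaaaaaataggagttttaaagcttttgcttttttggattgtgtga
Runx3: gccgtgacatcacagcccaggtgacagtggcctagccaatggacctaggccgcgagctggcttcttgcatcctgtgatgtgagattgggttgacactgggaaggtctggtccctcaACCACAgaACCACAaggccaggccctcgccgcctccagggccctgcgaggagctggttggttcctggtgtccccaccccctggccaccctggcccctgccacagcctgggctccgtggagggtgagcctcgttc

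The downstream windows of Runx1 and Runx3 held no Runx motif. The GC box GGGCGG, or CCGCCC on the other strand, was found in 35.7% of all windows, with 4 matches in the Cbfb window and 3 in the downstream Runx3 window. The Atf4 window held none of the 4 motifs searched, the others being the cyclic AMP response element TGACGTCA (1.79% of all windows) and the composite C/EBP-ATF element TGATGCAA or TTGCATCA (0.895%). Sp7 had no entry. A match to these letters is a description of the sequence and was not tested as a binding site.

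Library totals ran from 7305627 to 34518477 gene counts (median 14244957). Coronal libraries were the deepest, yet the 15 coronal E16.5 libraries detected the fewest genes (17274 to 22824, against 20627 to 28397 in the 70 libraries of other sutures) and had a mitochondrial share of 25.7% to 52.4%. The coronal E18.5 libraries had a share of 20.7% to 27.5%. In 6 libraries the share was above 40%, namely 1 frontal OF, 2 parietal OF and 2 SM libraries of the E16.5 coronal suture and 1 frontal OF library of the frontal suture at E18.5. Of the listed markers, 9 of 10 osteoblast markers were higher in OF than in SM, and 6 of 8 SM markers were lower in OF while 1 was higher. The study had reported several of these SM markers as enriched in SM from bulk data of the same sutures. Their count is therefore no independent check of the region labels. Markers of other cell types moved with the regions as well: 10 of 10 proliferation markers were higher in OF, and 7 of 7 ectocranial mesenchyme, 6 of 8 hypodermis, 8 of 10 macrophage and 7 of 9 pericyte markers were lower, while 1 pericyte marker was higher. Of 8 chondrocyte markers tested 2 were higher and 5 lower, and of 6 periosteal markers 2 were higher and 4 lower. Among all genes 27.8% were higher and 27.6% lower in OF. The part of these cell types in the OF to SM results below was not tested. Levels are given as CPM, read counts relative to scaled library totals, and differences as log2 with a standard error (SE) from 1 edgeR fit over 19768 genes that passed a low-count filter, all 6 genes included. A gene was called where its p, adjusted over all genes tested, was under 0.05. The labels name 40 embryos, and the leading parts of these names form 17 sets, read here as litters although the labels do not say so. No set occurs at both ages, so age and litter cannot be told apart.

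Every one of the 6 genes was higher in OF than in SM when averaged over sutures and ages. Sp7 differed most, 9.66-fold (log2 3.27 ± 0.11 SE, adjusted p = 3.8e-47), followed by Runx3, 4.93-fold (2.30 ± 0.10, adjusted p = 8.3e-38) and Runx1, 2.09-fold (1.06 ± 0.06, adjusted p = 2.3e-30). Runx2 was higher by 1.79-fold (0.84 ± 0.05, adjusted p = 4.9e-31), Atf4 by 1.55-fold (0.63 ± 0.06, adjusted p = 7.2e-15) and Cbfb by 1.43-fold (0.52 ± 0.05, adjusted p = 4.6e-14). In this comparison 55.4% of all genes tested were called, 27.8% higher and 27.6% lower in OF, so a call alone says little here, and the sizes and the single comparisons below carry the description. In bulk tissue, fewer cells of a type and less RNA per cell cannot be told apart.

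**Figure D1:**
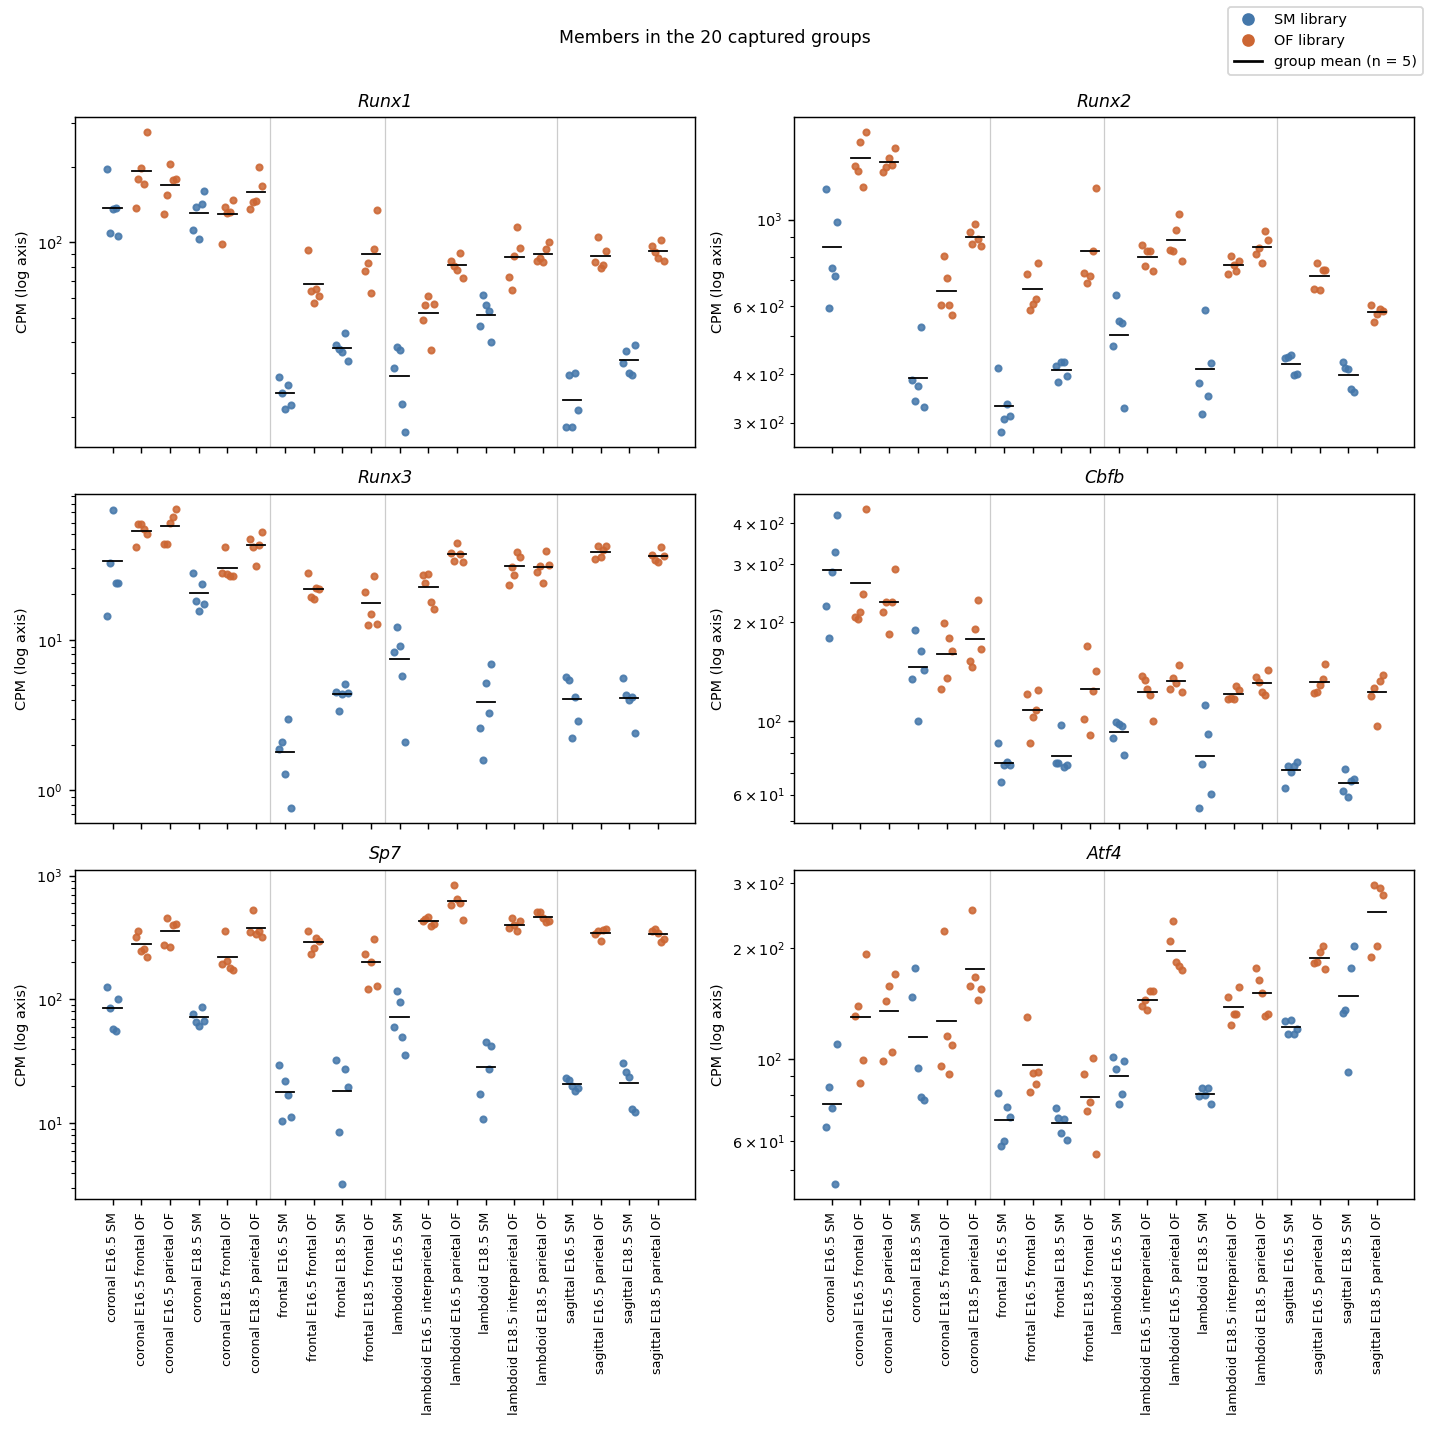
CPM on a log axis of each of the 6 genes in every one of the 100 libraries, by suture, age and region, with SM in blue, OF in orange and a bar at each group mean (n = 5). The Sp7 points of SM and OF separate in every suture at both ages, whereas those of Cbfb overlap at the coronal suture.

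The 20 groups contain 12 pairs of an OF and the SM of the same 5 embryos. Of the 72 comparisons of a gene in a pair, 59 (81.9%) were called higher in OF and none lower. Under an alternative processing, 5 of the other 13 were called, 4 of them higher in OF and 1, Cbfb at the parietal OF of the coronal suture at E16.5, lower. Sp7 and Runx2 were called in all 12 pairs, Runx3 in 10, Runx1 and Atf4 in 9 and Cbfb in 7. The calls that held under every alternative processing numbered 12 for Sp7, 11 for Runx2, 9 for Runx3, 8 for Runx1, 4 for Atf4 and 3 for Cbfb. All 6 genes were called at the parietal OF of the lambdoid suture at E16.5, where 13.4% of all genes were called higher, at the interparietal and the parietal OF of the lambdoid suture at E18.5 (12.2% and 14.7%), and in both sagittal pairs, at E16.5 (11.2%) and E18.5 (14.5%). At the interparietal OF of the lambdoid suture at E16.5, 5 genes were called (background 7.3%), as at the frontal suture at E16.5 (5.15%) and E18.5 (6.88%). The coronal suture gave fewer calls, 4 at the frontal OF (14.9%) and 4 at the parietal OF (16.6%) at E16.5, and 2 at the frontal OF (2.41%) and 4 at the parietal OF (9.77%) at E18.5.

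**Figure D2:**
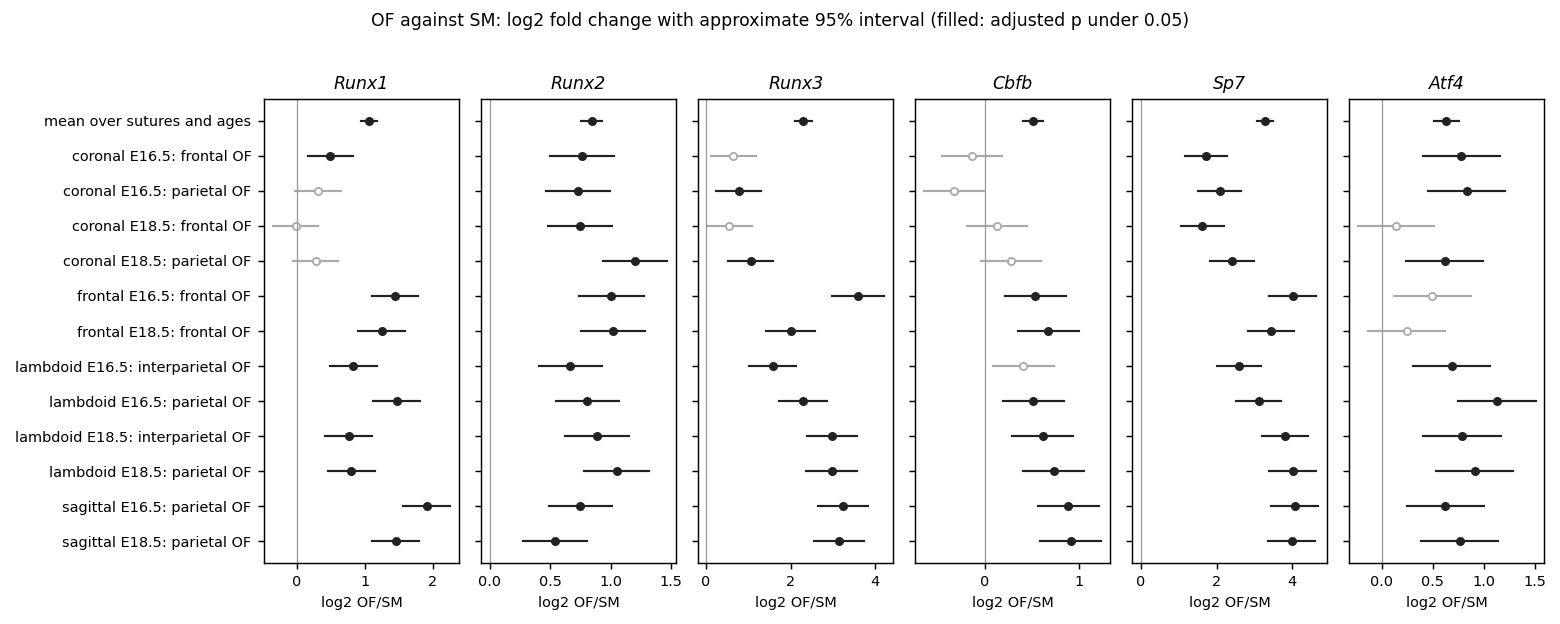
The log2 difference of OF minus SM of each gene with an approximate 95% interval, as the mean over all sutures and ages and in the 12 single pairs, with filled points where the adjusted p was under 0.05. Sp7 lies to the right of 1.5 in every pair, and the coronal pairs of Runx1, Runx3 and Cbfb lie nearest to 0.

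Runx2 was the most evenly raised of the 6 genes, with a log2 difference of 0.54 to 1.203 in the 12 pairs. In the sagittal suture at E18.5 its levels were 431, 415, 413, 366 and 360 CPM in SM (embryos 1 to 5) and 601, 546, 571, 588 and 582 CPM in OF. The 2 ranges were apart, and within every embryo the OF was higher. With second libraries in place of the first in the coronal samples that have one, the call at this pair was lost (0.57, adjusted p = 0.056). No coronal library enters this pair, but all 20 groups share 1 fit and its estimate of spread. In the coronal suture at E16.5, where its levels were the highest among the first libraries, SM had 1203, 590.3, 749, 716 and 985 CPM and the frontal OF 1378, 1335, 1586, 1216 and 1678 CPM. The lowest OF value there stood just above the highest SM value. Over all libraries, Runx2 was higher in OF than in the SM of the same embryo in 60 of 60 pairs of libraries. The OF to SM difference of Runx2 did not pass a test of variation among the 8 combinations of suture and age (F = 1.82, adjusted p = 0.26), whereas 19% of all genes did.

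Runx2 was also the Runx gene with the most RNA per length. Per kilobase of exon, it made up a median of 92.3% of the summed Runx1, Runx2 and Runx3 level in SM and 86.5% in OF. Runx1 made up 6.01% in SM and 7.40% in OF, and Runx3 1.81% and 6.07%. In the coronal SM at E18.5 the share of Runx2 was lower, 69.0% to 78.4%, and that of Runx1 15.54% to 24.7%. These shares rest on amplified RNA and on exon length, and another measure gave another mix. In all kept single cells of the coronal suture at E18.5, Runx1, Runx2 and Runx3 had 55.7, 61.4 and 11.5 CPM in library 1. In library 2 they had 59.4, 112 and 15.3 CPM, neither divided by length. The summed Runx level per kilobase was 2.22 times that of the partner gene Cbfb in SM and 2.75 times in OF (medians). Median levels per kilobase in OF ran from 104.6 CPM per kb for Sp7 and 89.9 for Runx2 to 61.9 for Atf4, 38.2 for Cbfb, 7.70 for Runx1 and 6.74 for Runx3. In SM, Runx2 led with 47.0 CPM per kb, before Atf4 (34.8), Cbfb (21.6), Sp7 (8.39), Runx1 (3.10) and Runx3 (0.958).

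Runx1, which is best known from blood stem cells and is also expressed in skeletal progenitors, differed between OF and SM by a log2 of -0.020 to 1.91. The sagittal suture at E16.5 showed the gap clearly, with 18.3, 29.5, 18.2, 30.1 and 21.4 CPM in SM and 83.8, 105, 78.8, 80.9 and 92.2 CPM in OF. In the coronal suture at E18.5, in contrast, SM had 112, 139, 103, 143 and 160 CPM and the frontal OF 98.5, 138, 132, 132 and 147 CPM. The regions overlapped there, and the log2 difference was -0.020 with a 95% interval from -0.35 to 0.31 (adjusted p = 0.98). The other pairs in which Runx1 was not called were the parietal OF of the coronal suture at E16.5 (0.31, adjusted p = 0.15) and at E18.5 (0.27, adjusted p = 0.29). Without replicate 1 the E16.5 value was 0.53 and passed (adjusted p = 0.021). At the frontal OF of the coronal suture at E16.5 Runx1 was called, but without replicate 5 the log2 difference was 0.24 (adjusted p = 0.29), and the call was also lost without replicate 2 or 3 and without the libraries above 40% mitochondrial.

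Runx3, known for roles in T cells, sensory neurons and maturing chondrocytes, had the lowest level of the 6 genes per length and the second largest difference. In the frontal suture at E16.5 its SM level was 1.88, 2.11, 1.28, 2.97 and 0.764 CPM, and its OF level 27.8, 19.3, 18.52, 21.95 and 21.7 CPM. Each OF value was far above each SM value, a fold of 12.1 (log2 3.602). In the coronal suture at E16.5 the SM values were scattered, 14.5, 32.3, 72.9, 23.7 and 23.9 CPM, against 41.0, 58.3, 58.4, 54.3 and 50.4 CPM in the frontal OF and 43.0, 43.3, 59.6, 65.7 and 74.0 CPM in the parietal OF. The third SM library stood above every frontal OF library and just below the highest parietal one. At the frontal OF of the coronal suture Runx3 was not called at E16.5 (0.65, adjusted p = 0.057) or at E18.5 (0.55, adjusted p = 0.35). With the embryo as a block, the E16.5 difference was 0.81 (adjusted p = 0.012), and without replicate 3 it was 1.10 (adjusted p = 0.0031). At the parietal OF at E16.5 the call was lost when the libraries above 40% mitochondrial were left out (0.24, adjusted p = 0.62). It was also lost without replicate 1, 4 or 5.

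Cbfb, the partner gene, had the smallest mean difference, with log2 values from -0.32 to 0.92. In the sagittal suture at E18.5 it was 61.7, 71.9, 58.9, 66.2 and 67.0 CPM in SM and 120, 127, 96.98, 133 and 138 CPM in OF, with no overlap. It was called at none of the 4 coronal pairs. Of its 7 calls, that at the frontal suture at E16.5 (0.54, adjusted p = 0.024) was lost without replicate 1, 3, 4 or 5, with limma-voom, with median-ratio size factors and with the second coronal libraries added or in place. The call at the parietal OF of the lambdoid suture at E16.5 (0.52, adjusted p = 0.014) was lost without replicate 1 or 4, with DESeq2, limma-voom or median-ratio size factors, without TMM (0.22, adjusted p = 0.29) and with the second libraries in place. At E18.5 the frontal suture lost its call without replicate 2 (0.53, adjusted p = 0.051) and the lambdoid interparietal OF without replicate 1 (0.47, adjusted p = 0.075). The coronal differences at E16.5 were -0.13 (adjusted p = 0.58) for the frontal and -0.32 (adjusted p = 0.11) for the parietal OF, and at E18.5 they were 0.13 (adjusted p = 0.82) and 0.28 (adjusted p = 0.25). The parietal OF at E16.5 was called lower than SM under 4 alternatives, with DESeq2 (-0.39, adjusted p = 0.044), with median-ratio size factors (-0.39, adjusted p = 0.048), without TMM (-0.48, adjusted p = 0.0061) and without replicate 2 (-0.46, adjusted p = 0.038). Among the first libraries, the coronal SM at E16.5 held the highest group mean of Cbfb, with 225, 179, 285, 326 and 423 CPM, and this range enclosed most of the frontal OF values of 208, 204, 215, 243 and 442 CPM. In the second libraries of 3 of these embryos the SM mean was 130.1 CPM, below the 139.1 and 140.5 CPM of the frontal and parietal OFs. At the interparietal OF of the lambdoid suture at E16.5 the log2 difference of Cbfb was 0.41 (adjusted p = 0.10), which passed with the embryo as a block (adjusted p = 0.042).

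Sp7 had the largest difference, 3.08-fold at the frontal OF of the coronal suture at E18.5 to 16.8-fold at the sagittal suture at E16.5 (log2 1.62 to 4.07). In the sagittal suture at E16.5, SM had 23.3, 22.3, 19.8, 18.1 and 19.4 CPM and OF 336, 359, 299, 363 and 372 CPM. In the coronal suture at E16.5, SM had 125, 85.6, 57.9, 55.6 and 100.2 CPM, the frontal OF 321.0, 354, 246, 255 and 222 CPM and the parietal OF 274, 453, 267, 398 and 406 CPM. The regions were apart in both sutures, but the coronal SM values were several times the sagittal ones. The OFs of the 2 sutures were more alike than their SM. Over all SM libraries Sp7 ran from 3.21 CPM (22 counts) to 125 CPM, and over all OF libraries from 122 to 837 CPM, so that only 1 OF library lay below the highest SM library. Sp7 was called in all 12 pairs under every alternative processing.

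Atf4 differed by a log2 of 0.14 to 1.12. In the lambdoid suture at E16.5, SM had 101, 94.0, 75.4, 80.4 and 99.0 CPM and the parietal OF 209, 237, 183, 179 and 174 CPM, with no overlap. Atf4 was not called at the frontal OF of the coronal suture at E18.5 (0.14, adjusted p = 0.85) or at the frontal suture at E16.5 (0.49, adjusted p = 0.11) and E18.5 (0.24, adjusted p = 0.54). With the embryo as a block, the frontal suture passed at E16.5 (0.48, adjusted p = 0.0074). Of the 9 calls of Atf4, 5 were lost under an alternative. That at the parietal OF of the coronal suture at E18.5 (0.61, adjusted p = 0.015) was lost without replicate 3, 4 or 5, without TMM (0.33, adjusted p = 0.19) and with the pairs of that suture and age fitted by themselves. The lambdoid interparietal OF at E16.5 lost its call without replicate 3 or 4, the sagittal suture at E16.5 without replicate 4, and both coronal OFs at E16.5 when that suture and age were fitted by themselves (adjusted p = 0.10 and 0.059). The variation of the OF to SM difference of Atf4 among suture and age combinations did not pass (F = 1.83, adjusted p = 0.26), but did so with the block (F = 4.37, adjusted p = 0.0059).

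The OF to SM difference varied among the 8 combinations of suture and age for Runx1 (F = 14.3, adjusted p = 4.8e-10), Runx3 (F = 19.8, adjusted p = 4.9e-13), Cbfb (F = 6.66, adjusted p = 6.8e-05) and Sp7 (F = 12.96, adjusted p = 3.3e-09). The coronal suture, which the title of the study names, was set against the average over the frontal, sagittal and lambdoid sutures. There, 21.3% of all genes were called, 8.45% with a larger and 12.8% with a smaller OF minus SM difference at the coronal suture. The difference was smaller at the coronal suture for Runx3 by a log2 of -2.06 ± 0.19 (adjusted p = 1.5e-14), for Sp7 by -1.75 ± 0.20 (adjusted p = 3.6e-11), for Runx1 by -1.06 ± 0.12 (adjusted p = 3.6e-11) and for Cbfb by -0.70 ± 0.12 (adjusted p = 2.6e-06). For Runx2 it was 0.023 (adjusted p = 0.91), with a 95% interval from -0.17 to 0.21, and for Atf4 -0.054 (adjusted p = 0.84), from -0.33 to 0.22. With second coronal libraries in place of the first, the 4 called values were -2.12 for Runx3, -2.03 for Sp7, -1.06 for Runx1 and -0.74 for Cbfb.

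The levels by region are given next. They compare libraries of different sutures, so a shift between libraries cannot be told apart from a difference of tissue. In the SM, the median of Runx3 was 23.5 CPM at the coronal suture and 4.16 CPM at the others, that of Runx1 137 and 32.3 CPM, that of Sp7 72.2 and 22.8 CPM, and that of Cbfb 185 and 73.9 CPM. In the OF, the medians were 43.1 and 30.7 CPM for Runx3, 151 and 83.7 CPM for Runx1, 321 and 372 CPM for Sp7, and 201 and 124 CPM for Cbfb. Thus the coronal SM stood further above the other SM than the coronal OF above the other OFs, while for Sp7 the coronal OF median was below the other one. In the same order, coronal first, the Runx2 medians were 560.0 and 414 CPM in SM and 1095 and 762 CPM in OF, and Atf4 was at 81.5 and 82.1 CPM in SM and 141 and 151 CPM in OF. These are levels of the first libraries. In second libraries of coronal samples, described further on, the Runx2 group means were 354.2 and 269.9 CPM in SM and 418.8 to 601.5 CPM in OF, below the medians of the other sutures, and the Sp7 group means in OF were 305.8 to 520.6 CPM, 3 of 4 of them above 372 CPM. Other cell type markers moved with this contrast. The summed level of the osteoblast markers was 205.9 to 968.0 CPM in coronal SM (median 421.4) and 21.3 to 421.6 CPM in other SM (median 76.9). The proliferation markers summed to 1434.9 to 4635 CPM in coronal SM and 395.7 to 1409.6 CPM in other SM, the suture mesenchyme markers to 3578 to 5374 and 1282.5 to 3653 CPM, the ectocranial mesenchyme markers to 433 to 981 and 1344 to 3372 CPM, the hypodermis markers to 239 to 559 and 1480 to 4369 CPM, and the mast cell markers to 1.55 to 21.8 and 53.6 to 452 CPM. No marker was at 0 in all libraries. The part of these cell types, of the depth and of the mitochondrial share in the coronal values was not tested.

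Ordered by group mean over the first libraries, the highest level of each gene lay in an OF for all but Cbfb. The second coronal libraries change this order, with means at E16.5 of 543.5 and 601.5 CPM for Runx2 in the OFs and, as given above, a Cbfb mean in SM below those of both OFs. For Runx1 their mean in the frontal OF at E16.5 was 113.8 CPM, below the 150.6 CPM of the parietal OF at E18.5. Runx1 ran from 192 ± 51.4 CPM (SD, n = 5) in the frontal OF of the coronal suture at E16.5 to 23.5 ± 5.90 in the sagittal SM at E16.5. Runx2 ran from 1439 ± 189 in that same coronal OF to 330.2 ± 50.8 in the SM of the frontal suture at E16.5, which was also lowest for Runx3 (1.80 ± 0.839) and Sp7 (18.03 ± 7.90). The highest group of Runx3 was the parietal OF of the coronal suture at E16.5 (57.1 ± 13.8) and that of Sp7 the parietal OF of the lambdoid suture at E16.5 (619 ± 144). Cbfb ran from 288 ± 94.3 in the coronal SM at E16.5 to 65.1 ± 5.04 in the sagittal SM at E18.5, and Atf4 from 251 ± 51.4 in the sagittal OF at E18.5 to 66.9 ± 5.32 in the SM of the frontal suture at E18.5. Most neighbours in these orders lay closer together than the larger of their SDs. Of the 19 steps in each order, only 4 were wider for Runx1, 3 each for Runx3, Cbfb and Sp7, and 1 each for Runx2 and Atf4.

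Averaged over the 4 sutures, Runx1 in SM was higher at E18.5 than at E16.5 by a log2 of 0.47 ± 0.09 (adjusted p = 3.1e-05), while Runx2 and Cbfb in SM were lower, by -0.30 ± 0.07 (adjusted p = 0.00079) and -0.32 ± 0.08 (adjusted p = 0.0048). In SM 11.1% of all genes were called between the ages, 5.14% higher and 5.92% lower at E18.5. The SM values of Runx3 (-0.092, adjusted p = 0.78), Sp7 (-0.37, adjusted p = 0.081) and Atf4 (0.17, adjusted p = 0.28) did not pass. Without the frontal suture Runx3 (-0.55, adjusted p = 0.019) and Sp7 (-0.51, adjusted p = 0.032) passed in SM, as did Sp7 without the sagittal suture (-0.51, adjusted p = 0.030). In OF, with the 4 sutures averaged, only Runx2 was called, lower by -0.23 ± 0.06 (adjusted p = 0.0027), against 12.2% of all genes, 6.05% higher and 6.14% lower. The OF to SM difference itself was not called as changed between the ages for any of the 6 genes (0.703% of all genes were), with log2 changes from -0.32 for Runx1 (adjusted p = 0.21) to 0.20 for Cbfb (adjusted p = 0.54). The mean declines of Runx2 and Cbfb rested on the coronal suture. Without it, the SM value of Cbfb was -0.096 (adjusted p = 0.707), and with the second coronal libraries in place of the first it was -0.25 (adjusted p = 0.15). For Runx2 without the coronal suture, the log2 age change was -0.027 (adjusted p = 0.925) in SM and -0.015 (adjusted p = 0.951) in OF. With the second coronal libraries the Runx2 values were -0.25 (adjusted p = 0.17) in SM and -0.17 (adjusted p = 0.297) in OF.

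**Figure D3:**
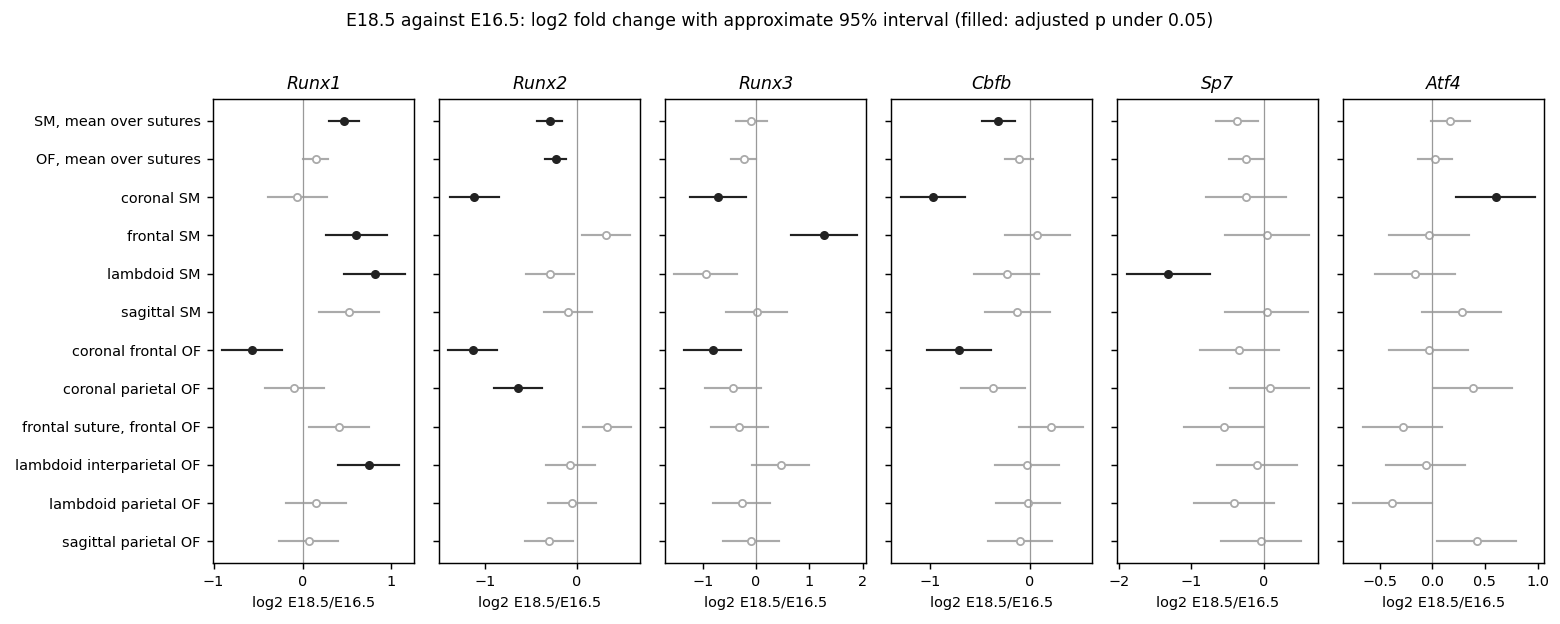
The log2 difference of E18.5 minus E16.5 of each gene with an approximate 95% interval, as the mean over sutures in SM and in OF and in each of the 10 suture regions, with filled points where the adjusted p was under 0.05. The lowest Runx2 values are those of the coronal SM (-1.11) and the coronal frontal OF (-1.13).

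In the 10 regions taken singly, 14 of 60 age comparisons (23.3%) were called, 9 of them lower at E18.5, and 9 of the 14 were coronal. In the coronal SM, where 27.1% of all genes were called, Runx2 (-1.11, adjusted p = 9.4e-10), Cbfb (-0.98, adjusted p = 3.7e-06) and Runx3 (-0.72, adjusted p = 0.038) were lower and Atf4 was higher (0.60, adjusted p = 0.013). Without replicate 3 the Runx3 value was -0.14 (adjusted p = 0.76), and its call was also lost without replicate 2, without the low-count filter, without TMM and with the second libraries added or in place. The Atf4 call was lost without replicate 1 (0.45, adjusted p = 0.15) or 2 (0.43, adjusted p = 0.089), and with the second libraries in place (0.50, adjusted p = 0.070). The Runx2 level there was 590.3 to 1203 CPM at E16.5 and 387, 341, 373, 529.8 and 329 CPM at E18.5, with no overlap. In the coronal frontal OF (24.4% of all genes) Runx2 (-1.13, adjusted p = 5.5e-10), Runx3 (-0.81, adjusted p = 0.019), Cbfb (-0.71, adjusted p = 0.00069) and Runx1 (-0.57, adjusted p = 0.0093) were lower. In the coronal parietal OF (20.6%) Runx2 alone was called, from 1327, 1365, 1437, 1380.0 and 1528 CPM to 930.0, 864, 973, 891 and 853 CPM (-0.64, adjusted p = 0.00025). With the second coronal libraries in place of the first, the log2 age change of Runx2 was -0.92 (adjusted p = 0.0043) in SM. It was -0.80 (adjusted p = 0.015) in the frontal OF and -0.49 (adjusted p = 0.19) in the parietal OF, and that of Cbfb in SM was -0.69 (adjusted p = 0.026). Under that setting the coronal calls of Runx3, Runx1 and Atf4, and of Cbfb in the frontal OF, were lost. That setting kept the first libraries of coronal samples without a second one. In the second libraries alone, which were not fitted by themselves, the Runx2 means at E16.5 and E18.5 were 354.2 and 269.9 CPM in SM. They were 543.5 and 418.8 CPM in the frontal OF and 601.5 and 553.6 CPM in the parietal OF. The Cbfb means in SM were 130.1 and 126.5 CPM. The calls of Runx3, Cbfb and Runx1 in the frontal OF were also lost without TMM, and that of Runx3 without replicate 3 or 4 and with the second libraries added. In the libraries behind these contrasts, age moved together with the number of genes detected and the mitochondrial share given above. With the libraries above 40% mitochondrial left out, the log2 age change of Runx2 was -0.82 (adjusted p = 1.9e-06) in SM, -1.10 (adjusted p = 4.0e-11) in the frontal OF and -0.62 (adjusted p = 0.00025) in the parietal OF. The part of the remaining difference in detected genes was not tested.

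Outside the coronal suture 5 age comparisons were called. In the SM of the frontal suture (background 2.33%) Runx3 rose by 1.28 (adjusted p = 0.010) and Runx1 by 0.60 (adjusted p = 0.041). The Runx3 levels there were 0.764 to 2.97 CPM at E16.5 and 4.49, 3.38, 4.37, 5.09 and 4.42 CPM at E18.5. In the lambdoid SM (2.96%) Runx1 rose by 0.81 (adjusted p = 0.0017), from 31.5, 38.1, 37.1, 22.5 and 17.5 CPM to 46.2, 61.8, 56.0, 53.2 and 40.1 CPM, with no overlap. With limma-voom this value was 0.85 (adjusted p = 0.054). Sp7 fell there by -1.32 (adjusted p = 0.0023), from 60.4, 118, 94.6, 49.9 and 35.5 CPM to 17.3, 10.9, 45.5, 27.6 and 41.8 CPM, and the ages overlapped. The Runx3 call in the frontal SM was lost without replicate 3 (1.18, adjusted p = 0.078) or 5 (1.07, adjusted p = 0.060), with limma-voom and without TMM. Without replicate 2 the Sp7 value was -0.86 (adjusted p = 0.12). In the lambdoid interparietal OF (0.288%) Runx1 rose by 0.74 (adjusted p = 0.025). No gene of the 6 was called in the frontal OF of the frontal suture (4.34%), the lambdoid parietal OF (0.986%), the sagittal OF (1.6%) or the sagittal SM (1.12%). The Runx1 value in the frontal SM lost its call when any single replicate was left out, and that in the lambdoid interparietal OF without replicate 1, 3 or 4, with limma-voom and with the second coronal libraries in place. Under an alternative, 7 further age comparisons were called. Runx1 in the frontal OF of the frontal suture passed without replicate 1 (0.63, adjusted p = 0.038) and Runx2 there with DESeq2 (0.39, adjusted p = 0.042). Without TMM Runx2 passed in the lambdoid SM (-0.43, adjusted p = 0.021) and the sagittal OF (-0.43, adjusted p = 0.047). Runx3 in the lambdoid SM (-0.94, adjusted p = 0.067) passed under 5 alternatives, among them that without replicate 5 (-1.47, adjusted p = 0.0025). In the coronal parietal OF Cbfb (-0.37, adjusted p = 0.096) passed under 4 alternatives, lowest without replicate 4 (-0.53, adjusted p = 0.047), and Atf4 (0.38, adjusted p = 0.15) without TMM (0.67, adjusted p = 0.0035) and without the libraries above 40% mitochondrial (0.57, adjusted p = 0.032).

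The age change in SM varied among the 4 sutures for Runx2 (F = 19.9, adjusted p = 2.7e-07), Runx3 (F = 10.8, adjusted p = 0.00019), Cbfb (F = 7.77, adjusted p = 0.0022), Sp7 (F = 4.94, adjusted p = 0.026) and Runx1 (F = 4.70, adjusted p = 0.032), beside 15.8% of all genes. With the second coronal libraries in place of the first, all of these except Runx3 lost the call, Runx2 at F = 4.96 (adjusted p = 0.061). Runx1 also lost it under 5 other settings and without replicate 1, 3 or 4, Sp7 with limma-voom and without replicate 1, 2 or 4, and Cbfb without TMM. That of Atf4 did not pass (F = 3.17, adjusted p = 0.12). In OF it varied for Runx2 (F = 22.04, adjusted p = 1.9e-08), Runx1 (F = 8.05, adjusted p = 0.0012) and Cbfb (F = 5.82, adjusted p = 0.0087), beside 22% of all genes. With the second coronal libraries in place these 3 calls were lost too, Runx2 at F = 4.54 (adjusted p = 0.058), as were those of Runx1 and Cbfb without TMM and that of Cbfb without replicate 5. For Runx3 (F = 2.48, adjusted p = 0.18), Sp7 (F = 0.653, adjusted p = 0.76) and Atf4 (F = 3.78, adjusted p = 0.057) it did not.

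The 2 fronts of 1 suture were compared in the coronal and lambdoid sutures, and 1 of 24 comparisons was called. At the coronal suture at E18.5 (5.44% of all genes called), Runx2 was lower in the frontal than in the parietal OF by -0.46 (adjusted p = 0.023), with 601, 804, 708, 602 and 567 CPM against 930.0, 864, 973, 891 and 853 CPM, and the frontal OF was lower in each of the 5 embryos. The call was lost without replicate 1, 3, 4 or 5 (-0.43 to -0.39), with median-ratio size factors (-0.40, adjusted p = 0.053), without TMM (-0.24, adjusted p = 0.28) and with the second libraries added (-0.40, adjusted p = 0.080) or in place (-0.36, adjusted p = 0.44). The Sp7 levels of the same fronts were 192, 356, 205, 178 and 173 CPM and 349, 527, 336, 359 and 322 CPM (-0.78, adjusted p = 0.089), again with the frontal OF lower in each embryo. The coronal fronts at E16.5 (14.4%) and the lambdoid fronts at E16.5 (0.486%) and E18.5 (0.0101%) gave no call among the 6 genes. With the embryo as a block, 4 of the 24 were called. Those gained were Sp7 (-0.80, adjusted p = 0.031) and Atf4 (-0.52, adjusted p = 0.0055) at the coronal suture at E18.5 and Runx1 at the lambdoid suture at E16.5 (-0.65, adjusted p = 0.034), each lower in the frontal or interparietal OF. Over both sutures and ages, Sp7 was higher there than in the parietal OF in 1 of 20 embryos.

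The coronal suture has a check outside the first libraries, since 3 embryos of each region and age have a second library. How these were made is not given in the sources used here. They had a mitochondrial share of 12.02% to 17.2% and totals of 5530060 to 17388841 counts. Runx2 was lower in the second library in all 18 pairs. Its mean in the same 3 embryos went from 842.2 to 354.2 CPM in the SM at E16.5 and from 429.5 to 269.9 CPM in the SM at E18.5, and in the frontal OF from 1448.4 to 543.5 CPM and from 624.2 to 418.8 CPM. Sp7 moved the other way and was higher in the second library in all 18 pairs, for example at 88.9 and 164.8 CPM in the SM and 310.2 and 492.4 CPM in the frontal OF at E16.5. Runx1 and Cbfb were lower in the second library in 9 of 9 pairs at E16.5, and Atf4 was higher in 16 of 18. At E18.5 Runx1 was lower in 1 of 3 pairs in each region, with SM means of 119.3 and 121.4 CPM. Cbfb was lower there in 1 of 3 pairs in SM, 2 of 3 in the frontal OF and 3 of 3 in the parietal OF. Runx3 in SM had means of 39.8 and 39.2 CPM at E16.5 and 22.2 and 29.1 CPM at E18.5. Thus the absolute coronal levels of Runx2 and Sp7 depended on the library at both ages, and those of Runx1 and Cbfb did so most clearly at E16.5. Those of Atf4 were mostly higher in the second library. The order of OF above SM held in both sets for the means of Runx2 and Sp7.

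**Figure D4:**
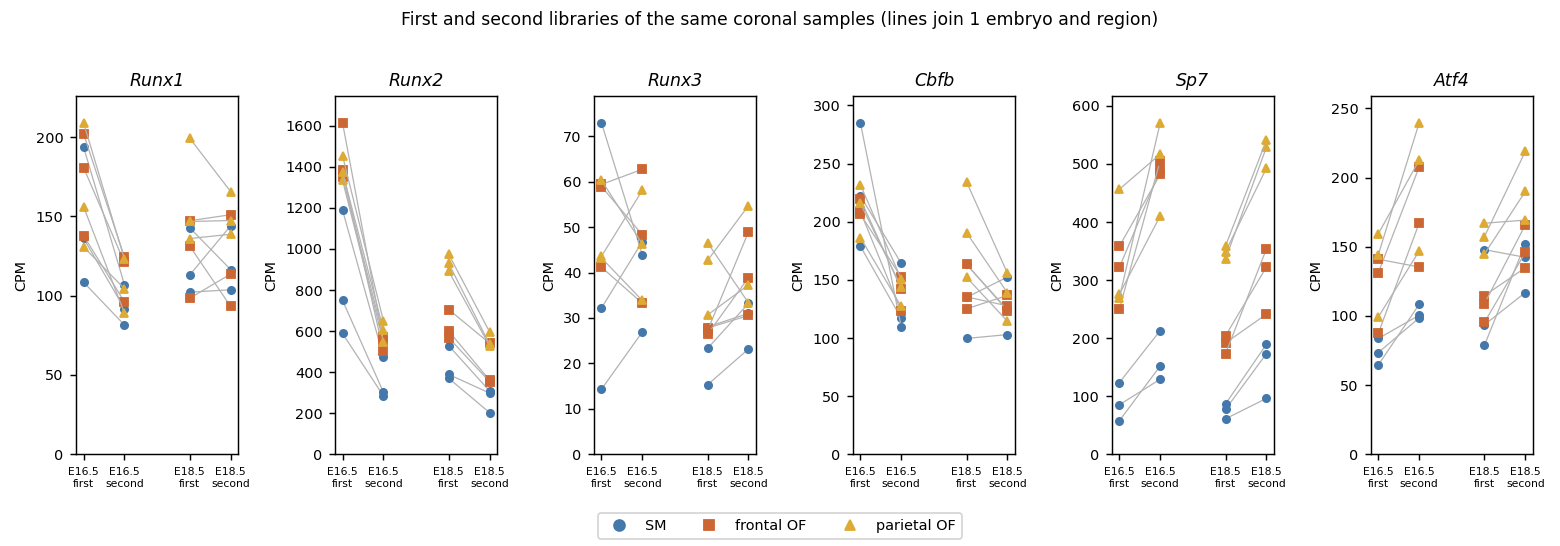
CPM of each gene in the first and the second library of the same 18 coronal samples, joined by lines, on linear axes that start at 0. All 18 lines of Runx2 fall and all 18 lines of Sp7 rise.

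The scRNA-seq of coronal sutures kept 466 and 337 cells from the E16.5 libraries and 2412 and 1577 from those of E18.5, at median UMI counts per cell of 2501, 2121, 18476 and 7131. Cells were clustered without the 6 genes, and clusters are named only from their markers. The ages differ in the capture chemistry as well, and there are 2 libraries at each age, so the values are a description without a test. They are CPM of summed UMIs, given for library 1 and then library 2, and intervals are exact Poisson intervals that cover counting error only. The library pairs shared 1 cell barcode at E16.5 and 5 at E18.5.

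Sp7 was the gene most concentrated in osteoblast-like cells. At E16.5 it had 537 CPM (95% interval 340 to 805, 23 UMIs in 14 cells) and 514 CPM (360 to 712, 36 UMIs in 18 cells) there. It had 93.2 and 140 CPM in an unnamed cluster led by Tnn, Npnt and Tnc, and 0 UMIs in 6 of the other 7 clusters. The leading genes of this Tnn cluster include Alpl of the osteoblast list, Hhip of the suture mesenchyme list and Pdgfrb of the pericyte list. The cells of this age were shallow, so Sp7 at a low level could go unseen in those clusters. At E18.5 it had 232 CPM (214 to 250) and 253 CPM (235 to 271) in osteoblast-like cells, 138 and 149 CPM in an unnamed cluster led by Cp, Gpx3, Mmp13 and Alpl (the last 2 are also genes of osteoblasts), 116 and 150 CPM in proliferating-like cells and 115 and 89.7 CPM in suture mesenchyme-like cells, a cluster whose leading genes include Dpt, a marker of the hypodermis list. In macrophage-like cells, which lack Sp7, it had 15.51 and 11.8 CPM, and ectocranial mesenchyme-like cells were near that at 13.3 and 25.1 CPM. After thinning to 5000 UMIs per cell at E18.5, 65.2% (73 of 112) and 68.4% (210 of 307) of osteoblast-like cells held an Sp7 UMI, against 5.05% and 6.06% of macrophage-like cells. Unthinned, the osteoblast-like shares were 99.1% and 81.3%. The 2 libraries differ in depth, and 45 shallower osteoblast-like cells of library 2 and none of library 1 were left out.

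Runx2 was spread over more clusters than Sp7. At E16.5 its level in osteoblast-like cells was 257 CPM (128 to 459) and 157 CPM (78.4 to 281), on 11 UMIs in each library, beside 165 and 197 CPM in the Tnn cluster, with intervals that overlap. At E18.5 it was 96.7 and 146 CPM in osteoblast-like cells, 121 and 177 CPM in the Cp cluster, 75.0 and 153 CPM in proliferating-like cells, 79.9 and 151 CPM in an unnamed cluster led by Sostdc1, and 71.9 and 73.1 CPM in suture mesenchyme-like cells. Macrophage-like cells had 15.01 and 16.7 CPM. The log2 ratio of osteoblast-like cells to the other suture cells was 4.30 and 2.45 for Sp7 and 1.80 and 0.030 for Runx2 in the E16.5 libraries. In those of E18.5 it was 1.86 and 1.31 for Sp7 and 0.50 and 0.21 for Runx2. The other suture cells include the Cp cluster at E18.5, and at E16.5 their mix differed between the libraries. The Tnn cluster gave 75 of 301 cells in library 1 and 87 of 135 in library 2, and hypodermis-like cells gave 122 and 1. The part of this mix in the ratios was not tested.

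Osteoblast-like cells were not the highest cluster for Runx1, Runx3, Cbfb or Atf4 at E18.5 either. Their log2 ratio to the other suture cells at this age was -0.39 and -0.68 for Cbfb and -0.080 and -0.27 for Atf4. It was 0.093 and -0.98 for Runx3 and 0.17 and -0.096 for Runx1. Runx1 had 204 and 158 CPM in pericyte-like cells, 139 and 93.6 CPM in chondrocyte-like cells and 104 and 63.7 CPM in macrophage-like cells, and 49.5 and 58.6 CPM in osteoblast-like cells. Runx3 had 29.6 and 31.9 CPM in the Cp cluster and 22.1 and 17.3 CPM in suture mesenchyme-like cells, with 12.001 and 8.94 CPM in osteoblast-like cells, close to or below its 13.2 and 24.5 CPM in macrophage-like cells. At E16.5 Runx3 had 50.9 and 43.7 CPM in the Tnn cluster and no UMI in macrophage-like cells. Cbfb had 135 and 150 CPM in proliferating-like, 113 and 94.3 CPM in suture mesenchyme-like and 64.4 and 70.9 CPM in osteoblast-like cells at E18.5. Atf4 was present in every cluster, from 65.7 CPM in erythroid-like cells to 429 and 312 CPM in chondrocyte-like cells and 425 and 283 CPM in pericyte-like cells.

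**Figure D5:**
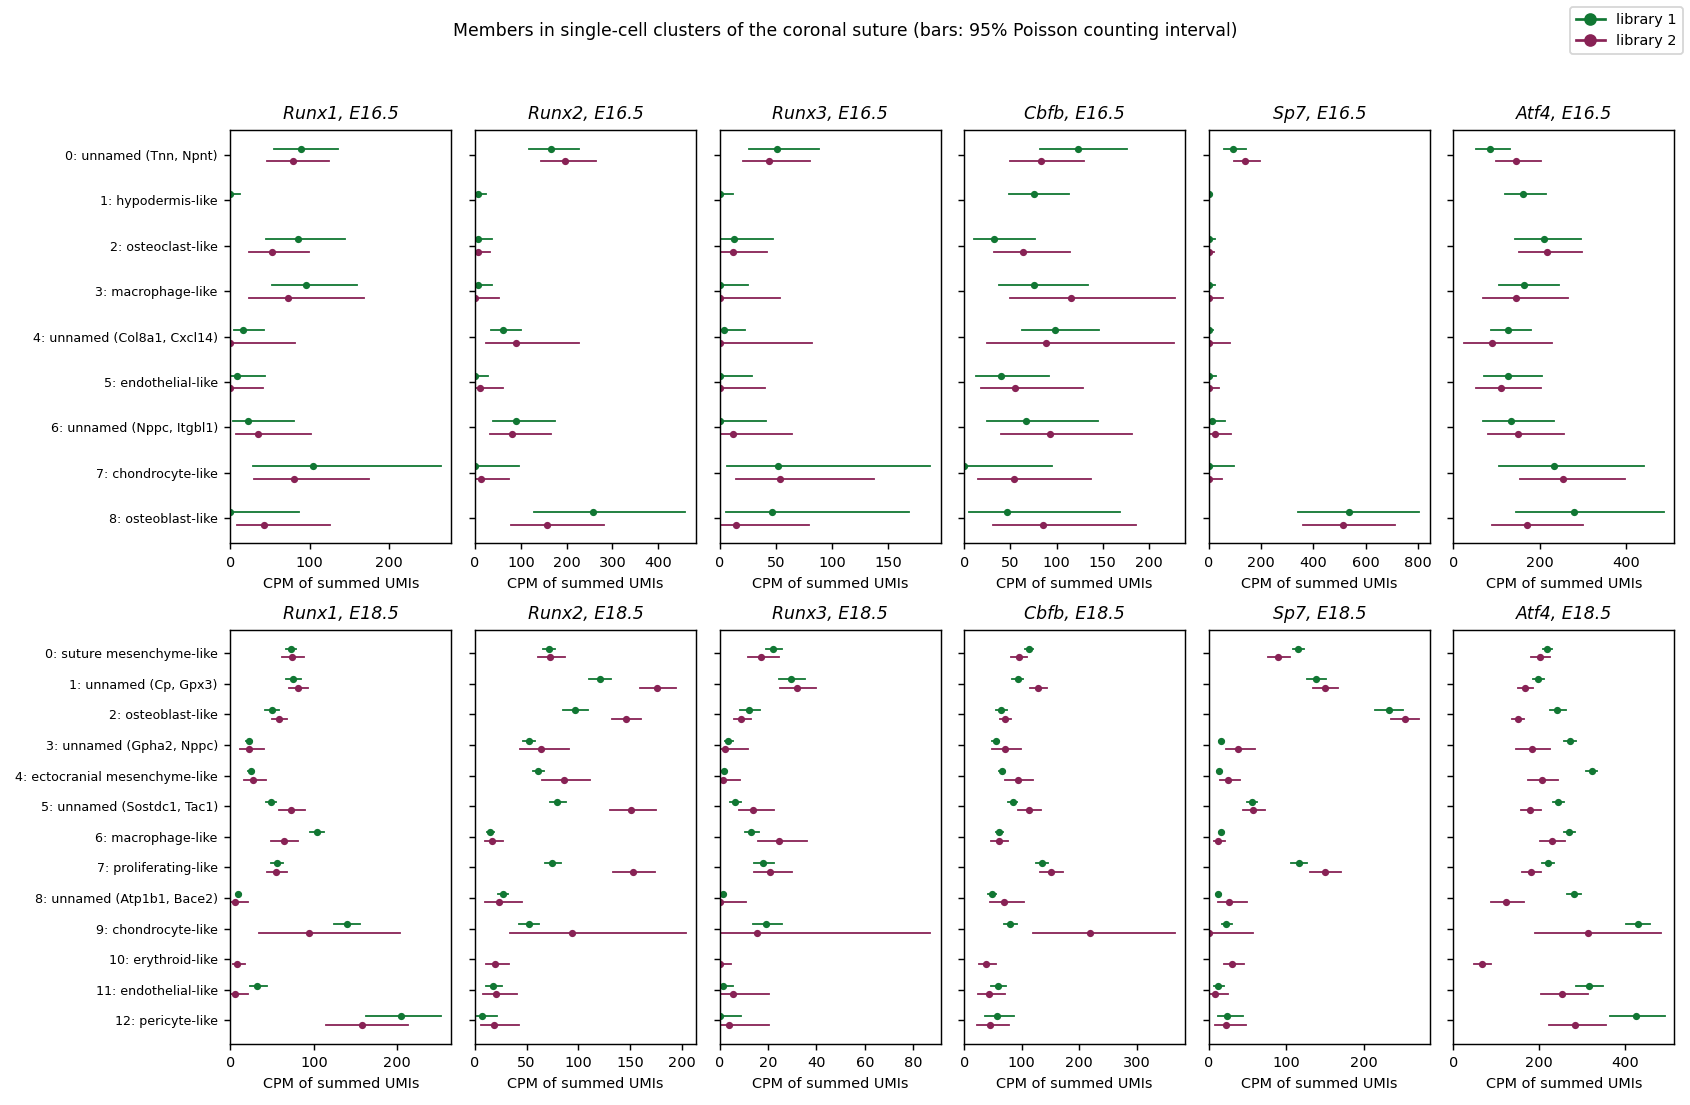
CPM of summed UMIs of each gene in 9 clusters at E16.5 and 13 at E18.5, with exact 95% Poisson intervals, library 1 in green and library 2 in purple. Sp7 is highest in osteoblast-like cells in all 4 libraries, while Runx1 at E18.5 is highest in pericyte-like cells.

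The genes whose 20 group means followed each gene most closely were named by Pearson's r over those means, as a description that shares the same libraries. Sp7 was followed by Tcf7 (r = 0.982), Smpd3 (0.982) and Slc8a3 (0.979), and Runx3 by Panx3 (0.960), Entpd7 (0.955) and Fat3 (0.953). Tcf7 encodes a transcription factor of Wnt signalling and Panx3 a channel of osteoblasts and chondrocytes. Runx2 was followed by Abi2 (0.957), Lrrc4 (0.946) and Cdh2 (0.933), Runx1 by Dennd2c (0.952), Mgat5 (0.938) and Uhrf1bp1l (0.936), Cbfb by Mbnl1 (0.983), Eif2s1 (0.980) and Mat2a (0.975), and Atf4 by Pdia6 (0.958), Anapc13 (0.957) and Ckb (0.952). Among the 6 genes, r was highest between Runx3 and Sp7 (0.911) and between Runx1 and Cbfb (0.901), and was 0.205 between Atf4 and Cbfb. These means are of first libraries only, so a shift between coronal and other libraries would enter each r. The part of such a shift was not tested.

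The genes that work with these factors were read from lists of cofactors, antagonists and targets, drawn up with earlier results of these data known. For the counts of OF against SM below, 27.8% of all genes were called higher and 27.6% lower. Of 15 osteoblast genes known as targets of Runx2 or Sp7, 14 were higher in OF and 1, Bglap2, was not called, with a median log2 difference of 3.56, that of Alpl, beside -0.036 over all genes tested. Ibsp, Spp1, Bglap, Bglap2, Phex, Dmp1 and Alpl are also among the osteoblast markers used above, so the 2 counts overlap. Dmp1, a phosphoprotein of osteocytes and bone matrix, had group means of 0 to 0.519 CPM in SM and 4.17 to 128 CPM in OF (adjusted p = 7.3e-35). Ibsp, bone sialoprotein, was higher by 6.58 ± 0.30 (adjusted p = 1.7e-35) and Phex, a regulator of phosphate levels, by 6.07 ± 0.23 (adjusted p = 1.1e-41). The group means of Ibsp were 16.9 to 298 CPM in SM and 2066 to 13498 CPM in OF. In the coronal suture the OF to SM difference of 7 targets was smaller and of 3, Col1a1, Col1a2 and Sparc, larger than in the others, where 12.8% of all genes were smaller and 8.45% larger there. With age 6 of the 15 rose in OF, against 6.05% of all genes, and none fell. They include Spp1, osteopontin, by 2.02 (adjusted p = 1.3e-08), Dmp1 by 1.74 (adjusted p = 1.8e-06) and Bglap2, an osteocalcin gene (adjusted p = 0.00034), whose group means in OF ran from 0 to 9.65 CPM. In SM 5 rose and 1 fell (5.14% and 5.92% of all genes). Some SM groups of Dmp1 and Bglap2 had no counts, so that their fitted OF to SM values are no bounds and are not given.

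Of 18 cofactors of Runx2 and Sp7, 11 were higher and 4 lower in OF (median 1.07). Dlx3, a homeobox factor, was higher by 5.87 ± 0.22 (adjusted p = 4.4e-42), at group means of 0.174 to 4.69 CPM in SM and 34.6 to 213 CPM in OF. Tcf7 was higher by 3.91 ± 0.15 (adjusted p = 2.2e-42). At the coronal suture the difference was smaller for 8 cofactors and larger for 2, beside the same 12.8% and 8.45%. With age, 7 of the 18 cofactors fell and 2 rose in OF (6.14% and 6.05% of all genes), and 4 fell and 2 rose in SM (5.92% and 5.14%). Of the 13 antagonists of Runx2, 12 were tested, and 2 were higher and 5 lower in OF (median -0.17), 7 of 12 called beside 55.4% of all genes. Zfp521, a zinc-finger repressor of Runx2, was lower by -1.07 ± 0.04 (adjusted p = 2.2e-40), at 533 to 723 CPM in SM and 189 to 367 CPM in OF. Hivep3, which promotes Runx2 degradation, was higher by 0.81 ± 0.12 (adjusted p = 7.3e-09), and Hey1, a target of Notch, by 0.76 ± 0.17 (adjusted p = 9.1e-05). With age Hivep3 rose in SM by 0.79 (adjusted p = 0.0011) and in OF by 0.68 (adjusted p = 0.00081), and Twist2, a repressor of Runx2 function, fell in SM by -1.13 (adjusted p = 0.0049). Of the cofactors, Lef1, a Wnt factor, fell in SM by -0.70 (adjusted p = 0.00090) and in OF by -0.72 (adjusted p = 4.8e-05), and Jund, an AP-1 subunit, rose in OF by 0.68 (adjusted p = 0.016). Vdr, the vitamin D receptor, had log2 age differences of 0.61 in SM (adjusted p = 0.11) and 0.52 in OF (adjusted p = 0.084).

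Of 20 targets of Atf4, 18 were tested, and 14 were higher in OF and none lower (median 0.87). Vldlr, a lipoprotein receptor, was higher by 2.67 ± 0.08 (adjusted p = 3.0e-49), Chac1, which degrades glutathione, by 2.54 ± 0.24 (adjusted p = 2.4e-16) and Psat1, an enzyme of serine synthesis, by 2.04 ± 0.08 (adjusted p = 2.0e-42). With age Psat1 fell in SM by -1.10 (adjusted p = 4.3e-13) and in OF by -0.50 (adjusted p = 3.0e-05). Slc7a11, a cystine importer, fell in OF by -1.62 (adjusted p = 0.0059), and Atf3, a stress-induced factor, rose there by 1.66 (adjusted p = 0.00023). In OF 8 of the 18 fell and 2 rose (6.14% and 6.05% of all genes), and in SM 3 fell and 1 rose (5.92% and 5.14%). Of the kinases that act on eIF2 alpha or on Atf4 protein, 5 genes in all, 2 were higher, 2 lower and 1 not called (median -0.031). Eif2ak3 (PERK) was higher in OF by 0.23 ± 0.07 (adjusted p = 0.0026), and Eif2ak4 (GCN2) and Eif2ak2 (PKR) were lower by -0.28 ± 0.08 (adjusted p = 0.0011) and -0.27 ± 0.07 (adjusted p = 0.0011).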

How the data were processed

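RNA of laser-captured suture regions (100 first libraries, 18 second coronal libraries), of 16 complete sutures and of 4 single-cell libraries was measured. The authors trimmed reads with cutadapt, aligned them to mm10 with STAR 2.5.3a and deposited unnormalised read counts per GENCODE M22 gene from featureCounts 1.6.4. Captured RNA had been amplified and made into libraries with a kit that keeps no strand. For single cells, the authors deposited Cell Ranger matrices of UMI counts. A deposited table of the authors' own log2 ratios was not used. The 6 genes and all lists were chosen with earlier results of these data known.

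The 19768 genes that reached 1 CPM in more than 10% of first libraries were fitted with edgeR 4.0.16 (TMM, quasi-likelihood, 1 mean for each of 20 groups, two-sided, Benjamini-Hochberg over all genes, threshold 0.05, in R 4.3.3). The named genes were the 6, the 3 most alike to each by r over group means, and in each list the 3 with the largest absolute OF to SM and age values, some of which are not reported here. Alternatives used DESeq2 1.42.0, limma-voom (limma 3.58.1), other scalings and filters, the second libraries, left-out replicates or sutures, and the embryo as a block. With the second libraries in place of the first, coronal samples without a second library kept their first one. The alternative that leaves out the libraries above 40% mitochondrial was chosen after seeing the data. Same-numbered samples of a suture and age come from the same embryo by the labels (40 of 40 numbers). Over 60 such pairs the deviations from group means correlated at a median of 0.0947 (29 above 0.1), against -0.0303 between embryos, over 10000 genes. On simulated counts (18370 genes) the mean OF to SM comparison recovered 95 of 100 changes of 1.5-fold and 100 of 100 of 3-fold, and 1 single comparison (coronal frontal OF at E16.5) 2 of 100 and 71 of 100. The simulation gave every gene the same spread, so these recoveries need not hold for the 6 genes. With the measured counts, that single comparison called 5995 genes.

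Cells with over 800 detected genes and within 3 median absolute deviations were clustered with scanpy 1.11.5 (2000 variable genes without the 6, 13 components, 100 neighbours, Leiden resolution 0.8), each age by itself. Of 1530, 1482, 2628 and 1999 deposited barcodes, 497, 359, 2625 and 1624 had over 800 genes. Scrublet marked 4 of 803 and 36 of 3989 kept cells, which were left in except in 1 alternative. Thinning used 2000 UMIs at E16.5 and 5000 at E18.5. Intervals cover counting error only.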

Additional observations from a re-analysis of the deposited data

Results flagged for a closer look

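In 11 of 120 groups of 5 libraries 1 library stood apart from the other 4 by Dixon's criterion (gap over range above 0.71), where chance flags about 1 in 20 groups. Replicate 2 of the coronal suture at E18.5 accounted for 5 of them. It was high for Sp7 in the frontal OF (356 CPM, others 173 to 205) and in the parietal OF (527 CPM, others 322 to 359), for Atf4 in the frontal OF (222 CPM, others 90.9 to 115) and in the parietal OF (254 CPM, others 145 to 167), and for Runx3 in the frontal OF (41.4 CPM, others 26.4 to 27.8). Replicate 1 of the frontal OF of the frontal suture at E16.5 was high for Runx1 (93.0 CPM, others 57.0 to 64.8) and Atf4 (129.9 CPM, others 81.4 to 92.4). For Runx2, replicate 4 of the coronal SM at E18.5 had 529.8 CPM (others 329 to 387) and replicate 5 of the frontal OF of the frontal suture at E18.5 had 1203 CPM (others 685 to 828). For Cbfb, replicate 5 of the coronal frontal OF at E16.5 had 442 CPM (others 204 to 243) and replicate 3 of the SM of the frontal suture at E18.5 had 97.3 CPM (others 72.8 to 74.9). The replicate 5 libraries named here had mitochondrial shares of 52.3% (frontal suture at E18.5) and 52.4% (coronal suture at E16.5).

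Several contrasts differed between sutures by a test of the difference itself. The OF minus SM difference at the coronal suture less that at the others was -2.06 for Runx3, -1.75 for Sp7, -1.06 for Runx1 and -0.70 for Cbfb on the log2 scale. The variation of that difference over suture and age had an F of 19.8 for Runx3, 14.3 for Runx1, 12.96 for Sp7 and 6.66 for Cbfb. The variation of the age change in SM among sutures had an F of 19.9 for Runx2, 10.8 for Runx3, 7.77 for Cbfb, 4.94 for Sp7 and 4.70 for Runx1, and that in OF an F of 22.04 for Runx2, 8.05 for Runx1 and 5.82 for Cbfb. The coronal libraries behind these values differ from the others in depth, genes detected and marker levels, whose part was not tested.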

How the results depend on the processing

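No value changed direction past its threshold under any alternative, and most values kept their side of it. Of the 59 OF to SM calls in single pairs, 47 held under every alternative, and the number called ran from 53 to 62. Of the 14 single age calls, 3 held under every alternative that was run on them, namely Runx2 in the coronal SM and coronal frontal OF and Cbfb in the coronal SM. None of these alternatives used the second libraries alone. In those libraries the Cbfb means in SM were 130.1 CPM at E16.5 and 126.5 CPM at E18.5. The Runx2 means in the same order were 354.2 and 269.9 CPM in SM and 543.5 and 418.8 CPM in the frontal OF. Neither the replicate block nor the fit of each suture and age by itself can be applied to age comparisons. With second coronal libraries in place of the first, 6 single age calls were made, and without 1 replicate 9 to 13. The number of front comparisons called was 4 with the replicate block, 3 with limma-voom, 2 with DESeq2 or without the libraries above 40% mitochondrial, 0 with median-ratio size factors, without TMM or with the second libraries in place, 1 (Runx1 at the lambdoid suture at E16.5, not Runx2) with them added, and 0 to 1 without 1 replicate. Beyond the values given with the results, the replicate block moved the F of the OF to SM variation of Atf4 to 4.37 past the threshold (adjusted p = 0.0059). It changed no other call among the mean and F results of the 6 genes that it could be fitted to. The ages share no embryos, so it was not fitted to the mean age values or to the F of the age change.

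Mean age values shifted with the sutures averaged, the cause of which was not tested. Without the coronal suture they were -0.027 for Runx2, -0.096 for Cbfb and 0.12 for Runx3 in SM, and -0.015 for Runx2, 0.31 for Runx1, 0.030 for Cbfb and -0.028 for Atf4 in OF. Without the frontal suture they were -0.55 for Runx3 and -0.51 for Sp7 in SM and -0.22 for Cbfb in OF, and the change of the OF to SM difference of Runx3 was 0.34. Without the lambdoid suture Runx3 in SM was 0.19, the change of the OF to SM difference of Sp7 was -0.18 and the coronal contrast of Atf4 was 0.061. Without the sagittal suture Sp7 in SM was -0.51, Atf4 in OF -0.11 and the coronal contrast of Runx2 -0.073, and without TMM that of Runx2 was -0.039. With second coronal libraries in place of the first, the mean age values were -0.25 for Runx2 and -0.25 for Cbfb in SM and -0.17 for Runx2 and -0.018 for Atf4 in OF, and with limma-voom -0.26 for Sp7 in OF. Without the libraries above 40% mitochondrial, the change of the OF to SM difference between ages was -0.024 for Runx2 and 0.0058 for Runx3.

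Among these mean age values, the calls of Runx2 in both regions and of Cbfb in SM ended without the coronal suture and with the second libraries in place. Calls were gained for Runx1 in OF without the coronal suture, Runx3 and Sp7 in SM and Cbfb in OF without the frontal suture, Sp7 in SM without the sagittal suture and Sp7 in OF with limma-voom. The F values of the age change were the least stable, and each value below ended the call, except that those of Atf4, and of Runx3 in OF, were gained. In SM, Runx1 gave 3.93 without the libraries above 40% mitochondrial, 3.84 with limma-voom, 4.12 without the filter, 2.91 with the second libraries added, 1.14 with them in place and 0.860 without TMM. In SM, Atf4 gave 4.39 without the libraries above 40% mitochondrial and 10.9 without TMM, Sp7 3.95 with limma-voom and 4.07 with the second libraries in place, Cbfb 2.20 with the second libraries in place and 1.85 without TMM, and Runx2 4.96 with the second libraries in place. In OF, Atf4 gave 4.14 with filterByExpr, 5.05 without the libraries above 40% mitochondrial, 4.65 without the filter and 10.2 without TMM, Runx3 3.98 with limma-voom, Runx1 3.19 and Cbfb 2.64 and Runx2 4.54 with the second libraries in place, and Runx1 2.30 and Cbfb 0.501 without TMM. Without 1 replicate, where some calls ended and that of Atf4 in SM was gained once, the F in SM ran from 2.63 to 6.29 for Runx1, 2.06 to 6.21 for Sp7 and 1.55 to 4.61 for Atf4, and in OF from 3.38 to 6.87 for Cbfb. The coronal contrast ran from -0.092 to 0.13 for Runx2 and from -0.12 to 0.038 for Atf4, the SM age value of Runx3 from -0.28 to 0.086, its change of the OF to SM difference from -0.31 to 0.067 and the OF age value of Atf4 from -0.044 to 0.077.

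Over all genes, the change of the OF to SM difference between ages called 139 genes, 249 with DESeq2, 67 with limma-voom, 54 with the second libraries in place, 316 without the libraries above 40% mitochondrial and 51 to 85 without 1 replicate. The mean SM age comparison called 2187 genes and 1375 without replicate 1. Fitted by themselves, the coronal pairs at E16.5 called 602 and 1032 genes in place of 5995 and 7045 and the coronal frontal OF at E18.5 458 in place of 683, whereas the frontal suture at E16.5 called 5143 in place of 1564, the lambdoid pairs at E16.5 5219 and 8151 in place of 2213 and 4562, and the sagittal suture 8873 and 8441 in place of 3506 and 5007. Without TMM 38.3% of OF to SM calls were higher, against 50.2%, and 23.5% of coronal contrast calls, against 39.8%, and the median of all genes moved from -0.036 to -0.14 and from -0.086 to -0.17. With limma-voom 56.8% of SM age calls were higher, against 46.5%. In single cells, the log2 ratio of Sp7 in osteoblast-like cells to other suture cells, with both libraries of an age pooled, ran from 3.19 to 3.58 at E16.5 and from 1.76 to 1.86 at E18.5. The lowest counts of Runx3 and Sp7 in an SM library were 12 and 22, which limits their precision there.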

Other observations

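Libraries of complete sutures, which hold SM and bone edges together and enter no comparison of regions, were described by their levels alone, on totals scaled together with the captured libraries. The labels call them normalization controls at E18.5, with the coronal, frontal, lambdoid and sagittal sutures in each of the control sets C, IF, L and S. The ranges below pool these sutures and sets. Over the 16 libraries Sp7 ran from 79.8 to 315 CPM (median 107) and Runx3 from 5.93 to 26.2 CPM (median 10.0). Runx1 ran from 21.8 to 108 CPM (median 47.8), Cbfb from 68.6 to 123 CPM (median 94.4) and Atf4 from 63.1 to 138 CPM (median 104). Runx2 had 236 to 471 CPM (median 304), and its lowest value was below that of the captured SM libraries (284 CPM). How these libraries differ in making from the captured ones was not tested.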
